A study of Mus musculus with 12 samples.

Results

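The earliest stage of lesion formation sampled in this series was examined by setting 3 arrays of Apoe-/- aortic arch after 8 weeks of high fat diet against 3 arrays of wild type aortic arch. The members are these 6 of the 12 arrays, taken by their labels and not by any measured value. The Apoe-/- animals are C57BL/6 mice that lack apolipoprotein E. They began the diet at 8 weeks of age, received no drug and were 16 weeks old at the end. The wild type C57BL/6 control began the same diet at the same age, but was fed for 16 weeks and was 24 weeks old at the end. Genotype, length of diet and age therefore change together in the comparison and cannot be told apart. Each array holds RNA of a pool of aortic arches. There were 8 mice in the 3 Apoe-/- pools (3, 2 and 3 mice in pools 1, 2 and 3) and 9 mice in the 3 wild type pools (pools 16, 17 and 18). All mice were fasted overnight. Each pool was labelled with Cy5 and read against a single Cy3 reference, an equal mixture of RNA from 21 Apoe-/- mice at 8, 16 and 24 weeks of diet. The sample titles call this reference a vehicle pool, whereas they mark the Apoe-/- pools as no drug. The values below are log2 ratios of a pool to that reference, so a level of 0 means equal to the Apoe-/- mixture and a negative level means below it. They cannot be compared between genes as amounts of RNA. Apoe-/- pools at 16 weeks (3 arrays) and 24 weeks (3 arrays) of diet were used only to ask whether a gene that differed at 8 weeks differed again later.

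Apolipoprotein E is the ligand by which the liver clears cholesterol-rich lipoprotein remnants, and mice without it accumulate these particles in plasma. Lipoproteins that are held in the arterial intima activate the endothelium, which recruits monocytes. The recruited cells become macrophages, take up lipid and turn into foam cells, the first visible element of a lesion, and the aortic arch is a site where lesions form early. Smooth muscle cells of the wall later lose contractile proteins and take part in the plaque.

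After 8 weeks of diet, more genes were higher than lower in the Apoe-/- arch. Of 19705 genes tested, 492 (2.5%) passed an adjusted p of 0.05 with limma, 347 higher (1.76%) and 145 lower (0.736%) in Apoe-/-. At least 2-fold differences were nearly all in one direction, with 146 genes higher (0.741%) and 12 lower (0.0609%). The 20 largest rises include Il1rn, Mmp12, Abcg1, Atp6v0d2, Trem2, Itgax and Gpnmb, and the 15 largest falls are led by Apoe itself. Unadjusted p values were under 0.05 for 4213 genes (21.4%). In 1825 genes (9.26%) the 3 Apoe-/- pools all lay above the 3 wild type pools, and in 2067 genes (10.5%) all lay below them. All 492 called genes were without overlap, so a lack of overlap sets no called gene apart from the others. The count of calls rested on the estimate of spread over all 12 arrays. With the 6 arrays of both groups alone, 29 genes passed, 23 higher and 6 lower, of which 28 are among the 492. After quantile normalization of the ratios 7 genes passed, all lower, where in the unscaled ratios 70.5% of the calls were higher. Why the rises did not pass after that scaling was not tested. It gives every array the same spread. Before it the interquartile range was 0.227 to 0.336 on the wild type arrays and 0.194 to 0.538 on the 8 week arrays. The foam cell genes described below lie at the extreme low end of the arrays of both groups. Their median rank was between the 0.6 and 0.83 percentile of all genes on the wild type arrays and between the 0.53 and 1.17 percentile on the 8 week arrays.

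The arrays differed in agreement and in spread before any comparison. Pools of wild type correlated with each other at r = 0.835 to 0.942 over all genes, and the 8 week pools at 0.561 to 0.662. For the Apoe-/- pools at 16 weeks r was 0.151 to 0.498 and at 24 weeks 0.402 to 0.53. These are correlations of ratios to an Apoe-/- reference and do not measure the quality of an array. Pool 2, the pool of 2 mice, stood apart on the second principal component (19.1% of the variance) with a score of 42 against -30.5 to 12.6 for the other 11 arrays, and had the widest ratios (interquartile range 0.538 on the log2 scale, against 0.126 to 0.336). Arrays at 8 weeks correlated negatively with arrays at 24 weeks (r = -0.615 to -0.309), all against the reference that contains both. Since the dye of each channel is given with the samples, the sign of the ratios was left as deposited. On wild type pools 16, 17 and 18 the smooth muscle marker Acta2 read 0.60, 0.80 and 0.56, Tagln 0.30, 0.30 and 0.29 and Cnn1 0.68, 0.96 and 0.74, all above the reference. Pool 1 held 12 transcripts more than 2 log2 units above each of the other 11 arrays. Among them were the spermatid genes Tnp1 (2.45 in pool 1 and at most -2.15 elsewhere), Prm1 and Tnp2. By the same measure the other 5 pools of the comparison held none. Among the 122 genes named by rule that passed the threshold, 53 stayed past it whichever single pool of the 12 was left out. Omission of wild type pool 17 lost 66 of the 122 calls, of pool 16 lost 55 and of pool 18 lost 18, and omission of pools 1, 2 and 3 lost 21, 22 and 34. Nothing in the labels says what the asterisk on pool 3 (and on pool 6 at 16 weeks) stands for.

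Apoe was the largest fall. Wild type pools 16, 17 and 18 read 2.62, 2.01 and 2.85, whereas Apoe-/- pools 1, 2 and 3 read -0.15, -0.10 and -0.20. The groups did not overlap, as in all 492 called genes. The 3 Apoe-/- pools sat at the level of the reference, which is itself Apoe-/-. The fall was 2.64 ± 0.17 (standard error) on the log2 scale, 6.24-fold (95% interval 4.81 to 8.09, adjusted p = 5.59e-05). Between 8 and 16 weeks Apoe did not pass (difference 0.08 ± 0.17, adjusted p = 0.851). Where in the gene the probe lies is not given, so a residual transcript cannot be told apart from background here.

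**Figure D1:**
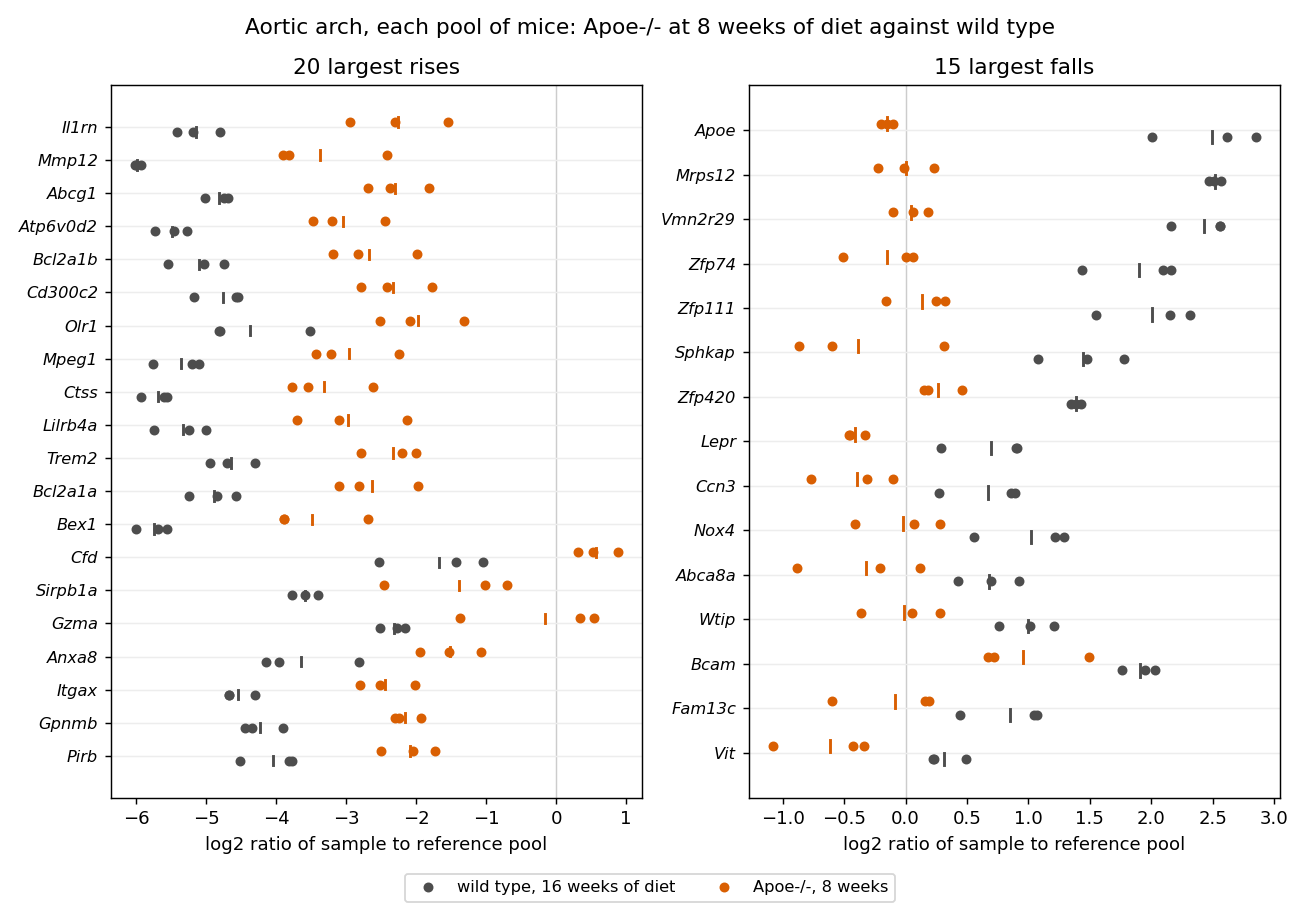
Log2 ratio to the reference pool of the 20 genes with the largest rise (left) and the 15 with the largest fall (right) among those past adjusted p 0.05. Each point is 1 pool of mice, grey for wild type and orange for Apoe-/- at 8 weeks, and the bar is the mean of 3 pools. The 3 Apoe-/- pools lie above all 3 wild type pools in each of the 20 rises and below them in each of the 15 falls. The groups are likewise without overlap in all 492 genes past the threshold.

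Il1rn, the secreted antagonist of the interleukin-1 receptor, had the largest rise. Its ratio was -4.81, -5.42 and -5.19 in the wild type pools and -1.55, -2.94 and -2.30 in the Apoe-/- pools, 7.33-fold higher (interval 4.75 to 11.3) with an adjusted p of 0.00135. Mmp12, an elastase secreted by macrophages, stood at -5.93, -6.02 and -6.00 in wild type and at -2.42, -3.82 and -3.90 in Apoe-/-, and rose 6.08-fold (3.64 to 10.2, adjusted p = 0.00431). In both genes pool 1 was the highest of the Apoe-/- pools and still below the reference. Abcg1, which exports cholesterol from macrophages to lipoproteins, had ratios of -4.69, -5.02 and -4.74 in wild type and -1.82, -2.69 and -2.38 in Apoe-/-. It rose 5.73-fold (4.04 to 8.13, adjusted p = 0.000735). Gpnmb, a glycoprotein of lipid-laden macrophages, was at -4.34, -4.44 and -3.91 in wild type and at -1.93, -2.24 and -2.30 in Apoe-/-, 4.21-fold higher (3.16 to 5.60, adjusted p = 0.000735), with the narrowest spread of pools among the 20. Trem2, a lipid-sensing receptor of foam cells, read -4.71, -4.94 and -4.30 in wild type and -2.0, -2.20 and -2.79 in Apoe-/-, a rise of 5.00-fold (3.42 to 7.32, adjusted p = 0.00207). Abcg1, Atp6v0d2, Cd300c2, Trem2, Itgax and Gpnmb are the 6 of the 20 that also passed with the 6 arrays alone.

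Both broad macrophage lists rose in part. The list of foam cell and lipid-associated macrophage genes had 30 measured members, of which 14 rose (46.7%, against 1.76% of all genes) and none fell, with a median log2 difference of 0.65 against -0.01 over all genes. In the pan-leukocyte and macrophage list 11 of 29 members rose (37.9%) and none fell, with a median of 0.74. Averaged over the foam cell list, the mean ratio was -2.57, -2.77 and -2.60 in wild type and -1.35, -1.79 and -1.83 in Apoe-/- pools 1, 2 and 3. In 17 of its 30 genes all 3 Apoe-/- pools lay above the 3 wild type pools, against 9.26% of all genes. Atp6v0d2, a proton pump subunit (5.44-fold), Mpeg1, the macrophage pore-forming protein (5.27-fold), and Itgax, an integrin of myeloid cells (4.31-fold), were each called without any single pool. Ptprc, the leukocyte common antigen, rose 3.51-fold (adjusted p = 0.019) but did not pass without pool 17 (0.0991) or pool 3 (0.0548). Spp1, osteopontin, rose 3.03-fold (adjusted p = 0.0146) and did not pass without pool 16 (0.0628). Other defining markers had smaller values. Csf1r, the receptor that macrophages need to survive, was at -1.79, -2.18 and -1.59 in wild type and -0.89, -1.21 and -0.97 in Apoe-/- and rose 1.78-fold (adjusted p = 0.0223), but not past the threshold without pool 16 (0.0631), 17 (0.0919) or 3 (0.0586). Adgre1 differed by 0.86 on the log2 scale (adjusted p = 0.118; 1.16 and 0.0301 without pool 2) and Cd68 by -0.03 (adjusted p = 0.824), the probe for Cd68 lying between -0.28 and -0.07 on all 6 arrays. After quantile normalization the medians of both lists were near 0 (0.01 for foam cells and 0.05 for pan-leukocyte genes) and no member passed. With the 6 arrays alone, 5 foam cell genes and 2 pan-leukocyte genes passed, and without wild type pool 17 the counts were 8 and 4. In these pools, more cells of a type and more RNA per cell cannot be told apart.

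Genes of macrophages that live in the healthy wall were read separately. None of 19 measured genes of resident macrophages passed in either direction, where 2.5% of all genes did. At that share a list of this size can hold none, so the count does not set the list apart. Their median difference was -0.01, as over all genes. Pf4, a chemokine that resident cells hold, had the largest value, 1.00 (adjusted p = 0.208; 1.59 and 0.0134 without pool 2), spread over 0.15, -1.27 and 0.84 in the Apoe-/- pools. The difference between this list and the foam cell list was not tested.

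Several of the other large rises belong to myeloid receptors and survival genes. Cd300c2, Lilrb4a, Pirb and Sirpb1a, members of the paired immune receptor families, rose 5.40-, 5.11-, 3.86- and 4.57-fold, the last not past the threshold without pool 17 (adjusted p = 0.0797). Bcl2a1b and Bcl2a1a, neighbouring anti-apoptotic genes of leukocytes whose transcripts are nearly alike, rose 5.42- and 4.78-fold, and their probes may read each other. Olr1, an oxidised lipoprotein receptor, rose 5.31-fold but was lost without pool 17 (adjusted p = 0.0797). Bex1 and Gzma are best known from other cells. Bex1, a gene of neurons, stood at -5.69, -6.00 and -5.56 in wild type and at -2.69, -3.89 and -3.89 in Apoe-/- and rose 4.78-fold (adjusted p = 0.00846). Gzma, a granzyme of cytotoxic lymphocytes, rose 4.47-fold (adjusted p = 0.0304) with pool 2 at -1.37 apart from 0.35 and 0.55 in pools 1 and 3, and it was lost on omission of any of 6 pools, with adjusted p up to 0.133.

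Because many of these genes moved together, the RefSeq promoter windows of GRCm38.p6 (250 bases before to 50 after a transcription start, first listed start of a gene) were searched on both strands for 3 motifs of factors known in myeloid and interferon-treated cells. The letters were GAGGAAG for PU.1, the myeloid master regulator, TGANTCA for AP-1 and GAAA followed after 2 free bases by GAAA again for the interferon-stimulated response element (ISRE), and they share no core. Of the 20 largest rises 17 had a window. AP-1 letters were in 7 of them (41.2%), against 7.24% of the 15653 tested genes with a window and 7.81% of all 32851 windows. Over all rises with a window the AP-1 share was 28 of 278 (10.1%) and over falls 7 of 116 (6.03%). PU.1 letters were in 6 of 17 (35.3%), against 12.9% and 13.6%, and in 59 of the 278 rises with a window (21.2%) but 14 of 116 falls (12.1%). ISRE letters were in 4 of 17 (23.5%), against 3.24% and 3.44%, but in 13 of 278 rises (4.68%) and 5 of 116 falls (4.31%). These shares describe letters and no binding was measured. Windows of 2 leading foam cell genes with PU.1 letters (Mmp12 and Trem2) and of 2 with AP-1 letters (Il1rn and Itgax) are shown. Capitals mark only the motif for which a gene is shown. The Trem2 window also holds an AP-1 match, left in lower case.
Mmp12 (chr9:7344147-7344446, plus strand): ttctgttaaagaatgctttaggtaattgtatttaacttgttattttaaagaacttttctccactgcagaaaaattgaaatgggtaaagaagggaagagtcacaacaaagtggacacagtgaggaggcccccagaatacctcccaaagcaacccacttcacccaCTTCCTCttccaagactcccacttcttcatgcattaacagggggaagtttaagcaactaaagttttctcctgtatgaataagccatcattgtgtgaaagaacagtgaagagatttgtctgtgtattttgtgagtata
Trem2 (chr17:48346151-48346450, plus strand): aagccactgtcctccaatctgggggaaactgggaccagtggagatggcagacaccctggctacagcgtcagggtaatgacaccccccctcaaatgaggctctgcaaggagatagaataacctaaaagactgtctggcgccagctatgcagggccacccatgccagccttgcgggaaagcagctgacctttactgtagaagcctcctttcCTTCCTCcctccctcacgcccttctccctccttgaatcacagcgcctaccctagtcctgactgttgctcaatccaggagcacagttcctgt
Il1rn (chr2:24336610-24336909, plus strand): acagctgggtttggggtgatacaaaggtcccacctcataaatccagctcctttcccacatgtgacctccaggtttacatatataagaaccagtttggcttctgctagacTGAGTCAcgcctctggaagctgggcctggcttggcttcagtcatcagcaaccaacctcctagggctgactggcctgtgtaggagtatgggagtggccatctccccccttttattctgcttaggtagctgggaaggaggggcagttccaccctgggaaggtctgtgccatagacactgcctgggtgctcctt
Itgax (chr7:128129300-128129599, plus strand): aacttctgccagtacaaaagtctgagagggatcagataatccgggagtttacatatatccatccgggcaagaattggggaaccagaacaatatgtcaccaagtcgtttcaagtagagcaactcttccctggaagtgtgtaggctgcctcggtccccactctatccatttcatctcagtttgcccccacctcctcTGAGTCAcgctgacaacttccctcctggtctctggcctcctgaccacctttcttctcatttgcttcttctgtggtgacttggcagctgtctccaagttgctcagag

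Inflammatory signals were read from their ligands and receptors. Of 25 chemokine ligands, 5 rose (20%, against 1.76% of all genes) and none fell, with a median of 0.56. They were Ccl7 (2.69-fold), Ccl6 (2.21-fold), Ccl2, the main monocyte attractant (2.17-fold), Ccl3 (2.09-fold) and Cxcl16 (1.54-fold). Their adjusted p values lay between 0.0379 and 0.0489, and each was lost on omission of 8 or more of the 12 pools (up to 0.187), so that the count of rises ranged from 0 (without pools 17, 10, 11 or 12) to 5. Without pools 4, 16, 18, 1, 3, 5 and 6 it was 1, 2, 2, 2, 3, 3 and 3. Of 25 cytokines and cytokine receptors, 4 rose (16.0%), Il1rn among them (2 rose without pool 16 or 17), and the median was 0.00. Csf2ra, a receptor chain for GM-CSF, rose 2.30-fold (adjusted p = 0.00399) and held without any single pool. Il6 had the largest mean difference of the list, 2.88 on the log2 scale, and did not pass (adjusted p = 0.0917), but passed without pool 2 (4.04, adjusted p = 0.00311). Its ratio was -4.51, -4.33 and -4.78 in wild type and 0.56, -3.96 and -1.56 in pools 1, 2 and 3, so the Apoe-/- pools were spread over a wider range than the gap to wild type. Il1b behaved alike, with -2.63, -3.82 and -2.76 against -0.54, -2.50 and -0.14 (adjusted p = 0.0865), and a difference of 2.73 without pool 2 (adjusted p = 0.00719). Cxcr4, a receptor on most leukocytes, was the 1 of 13 chemokine receptors (7.7%) that rose, 3.18-fold (adjusted p = 0.00686).

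Lysosomal genes, which serve the breakdown of ingested lipid, were mostly not yet different. Ctss, a cathepsin of antigen-presenting cells, rose 5.22-fold (adjusted p = 0.00427), with -5.56, -5.93 and -5.60 in wild type and -2.61, -3.77 and -3.55 in Apoe-/-. Ctsz (1.49-fold, lost without any of 9 pools, adjusted p up to 0.156) and Atp6v1b2 (1.36-fold, lost without pools 16 and 17, 0.0685 and 0.0847) were the other members of 29 that rose (3 of 29, 10.3%, against 1.76% of all genes). The list's median was 0.14, none fell, and 24 of the 29 differences were above 0. The count of rises was 1 without pool 16 or 17 and 0 with the 6 arrays alone.

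Targets of the liver X receptor (LXR), the nuclear receptor that senses sterols, and genes of cholesterol export were read as 1 list. It included several genes that held under every single omission. Of 17 measured members 6 rose (35.3%, against 1.76% of all genes) and none fell, with a median of 0.60. With the 6 arrays alone 1 member passed. After quantile normalization 0 rose and the median was 0.19. The list's mean ratio was -0.84, -1.07 and -0.89 in wild type and -0.31, -0.37 and -0.34 in Apoe-/-. Beside Abcg1, Scarb1, a receptor for high density lipoprotein, read -0.67, -1.22 and -0.62 against 0.14, 0.40 and 0.59 and rose 2.31-fold (adjusted p = 0.00695). Scd1, a fatty acid desaturase, rose 1.95-fold (adjusted p = 0.00431), Srebf1, which drives fatty acid synthesis, 1.65-fold (0.00781) and Lpcat3, which remodels phospholipids, 1.61-fold (0.00686). All of these held without any single pool. Cholesterol synthesis itself gave 0 rises and 2 falls among 19 members (10.5%, against 0.736% of all genes), with a median of -0.09. They were Msmo1 (1.81-fold lower, adjusted p = 0.0489) and Cyp51 (1.37-fold lower, adjusted p = 0.0376), and each was lost on omission of any of 10 pools (up to 0.197 and 0.165).

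Part of the endothelial list rose. Of 23 measured endothelial genes 6 rose (26.1%, against 1.76% of all genes) and none fell. The median was 0.44 (0.34 after quantile normalization, when none passed), and with the 6 arrays alone Plvap passed. Plvap, a protein of endothelial diaphragms, stood at -1.19, -1.43 and -1.09 in wild type and at -0.19, 0.11 and 0.06 in Apoe-/-, 2.35-fold higher (1.94 to 2.84, adjusted p = 0.00154). Egfl7, secreted by endothelium, rose 2.19-fold (adjusted p = 0.00617), Tie1, an endothelial receptor kinase, 1.83-fold (0.00431) and Mmrn2 1.76-fold (0.00643). Robo4 rose 1.86-fold (0.0379) and was lost on omission of any of 7 pools (up to 0.165). The probes of Cdh5 and Pecam1, both defining markers, lay within -0.14 to 0.22 on all 6 arrays and did not pass (adjusted p = 0.405 and 0.408). Vwf differed by 0.51 (adjusted p = 0.172). The whole list's mean was -0.29, -0.52 and -0.44 in wild type and -0.01, -0.14 and 0.18 in Apoe-/-. Among 14 adhesion ligands of endothelium 3 rose (21.4%). F11r, a junctional adhesion molecule, rose 1.66-fold (adjusted p = 0.00289), Esam 1.52-fold (0.0173, not without pool 17, 0.0919) and Icam1, to which rolling leukocytes attach, 1.43-fold (0.0361, lost without any of 7 pools, up to 0.167). Vcam1, the adhesion molecule best known from early lesions, differed by 1.21 and did not pass (adjusted p = 0.103; 1.57 and 0.0327 without pool 2), with -1.39, -3.11 and -2.67 in the Apoe-/- pools against -3.59, -3.47 and -3.73.

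The interferon list had 25 measured members, of which 3 rose (12.0%, against 1.76% of all genes) and none fell, with a median of 0.37. The count was 1 without pool 16 or 17 and 5 without pool 18. Rsad2, an antiviral enzyme, was at -1.41, -2.29 and -1.54 in wild type and at 0.02, 0.02 and -0.02 in Apoe-/-, the closest agreement between Apoe-/- pools of the genes shown here, and rose 3.37-fold (2.25 to 5.05, adjusted p = 0.00816). Isg15 rose 1.83-fold (0.0239, not without pool 16, 0.0631, or pool 17, 0.0735). Mx1 rose 1.28-fold (0.0496, lost on omission of any of 10 pools, up to 0.177), although laboratory C57BL/6 mice carry a defective copy of it. Cxcl10 differed by 2.22 and did not pass (adjusted p = 0.0897; 2.85 and 0.0386 without pool 3), with -0.04, -0.60 and -2.23 in the Apoe-/- pools. ISRE letters were in 13 of the 17 interferon list genes with a window (76.5%, against 3.24% of tested genes). The list holds genes of the interferon response whether or not they passed, so this share describes the list and not the calls. Among all rises with a window the ISRE share was 4.68%, and among falls 4.31%. The windows of Isg15 and Rsad2 are shown with the ISRE letters in capitals, overlapping matches joined. The Rsad2 window also holds an AP-1 match, left in lower case.
Isg15 (chr4:156200769-156201068, minus strand): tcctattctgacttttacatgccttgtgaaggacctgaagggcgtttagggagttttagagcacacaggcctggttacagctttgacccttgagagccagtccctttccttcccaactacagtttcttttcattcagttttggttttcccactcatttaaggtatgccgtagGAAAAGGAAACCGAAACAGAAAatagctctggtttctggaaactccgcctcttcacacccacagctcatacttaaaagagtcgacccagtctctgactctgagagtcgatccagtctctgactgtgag
Rsad2 (chr12:26456403-26456702, minus strand): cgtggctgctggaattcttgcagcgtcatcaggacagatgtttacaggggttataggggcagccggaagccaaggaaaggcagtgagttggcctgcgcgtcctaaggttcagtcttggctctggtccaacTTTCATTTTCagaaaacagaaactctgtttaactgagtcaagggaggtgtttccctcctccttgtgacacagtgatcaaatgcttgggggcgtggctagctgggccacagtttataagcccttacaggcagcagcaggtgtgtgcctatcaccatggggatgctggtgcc

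Complement and redox genes rose in part. Of 18 complement genes 5 rose (27.8%, against 1.76% of all genes), with a median of 0.07, and 3 rose without pool 16, 17 or 1. C3, the central component, rose 1.91-fold (adjusted p = 0.00658) and Cfp, properdin, 2.00-fold (0.0112), both without loss on any single omission. C1qa and C1qc, made by macrophages, rose 2.57- and 2.54-fold (0.0264 and 0.0258), each lost on omission of any of 4 pools (up to 0.124 and 0.117). Of 20 genes of oxidative stress, haem and iron 5 rose (25%), among them Hmox1, which degrades haem (2.63-fold, 0.0146, lost without pools 16 and 17, 0.0542 and 0.0757), and Hp, haptoglobin (2.73-fold, 0.0266, lost without pools 17 and 3, 0.100 and 0.065). Omission of pools 16, 17 and 3 left 1, 0 and 2 such rises. In the list of NADPH oxidase and eicosanoid enzymes 4 of 23 rose (17.4%) and 2 fell (8.7%, against 0.736% of all genes). Without pool 17 the count of rises was 2. Rac2 and Ncf4, parts of the phagocyte oxidase, rose 3.09- and 3.04-fold (both 0.00431), and Nox4, the oxidase of vascular cells, fell 2.06-fold (0.0265, lost without pools 16 and 17, 0.105 and 0.129). F7, coagulation factor VII, rose 3.15-fold (0.00427), the largest of 3 rises among 19 coagulation genes (15.8%).

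Smooth muscle is the main tissue of the arch wall. Of 30 contractile genes none rose and 2 fell (6.7%, against 0.736% of all genes), with a median of -0.14. The count of falls was 0 without pool 16, 17 or 3, 1 without pool 2, 4 or 11, 7 without pool 18 and 5 with array weights. Ppp1r14a, an inhibitor of myosin phosphatase, was at 1.24, 1.25 and 1.09 in wild type and at 0.55, 0.74 and 0.47 in Apoe-/-, 1.52-fold lower (adjusted p = 0.0239). It was lost without pools 16, 17 and 3 (up to 0.112). Pdlim3 was 1.31-fold lower (0.0345, lost on omission of any of 6 pools, up to 0.160). Myh11, smooth muscle myosin, had ratios of 1.03, 1.16 and 0.58 against 0.53, 0.47 and 0.56 and did not pass (adjusted p = 0.11; difference -0.57 and 0.00828 without pool 18), and neither did Acta2 (difference -0.13), Tagln (-0.05) or Cnn1 (-0.16). None of 26 smooth muscle regulators and channels passed, and none of 18 fibroblast genes, 18 proteoglycans, 23 TGF-beta and BMP genes or 22 genes of PDGF, FGF and VEGF signalling. Over all genes 2.5% passed. In the list of modulated smooth muscle, Spp1 and Col8a1 (lost on omission of any of 8 pools, up to 0.132) rose (2 of 24; 0 without pool 16, 4 without pool 2 and 1 without any of pools 17, 18, 4, 6, 10, 11 and 12) and Sost fell 1.78-fold (adjusted p = 0.00431), from 1.28, 1.16 and 1.11 to 0.30, 0.23 and 0.52 with no overlap. Of 28 collagen and elastic fibre genes 1 rose (3.6%, against 1.76% of all genes), which does not set a list of this size apart.

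**Figure D2:**
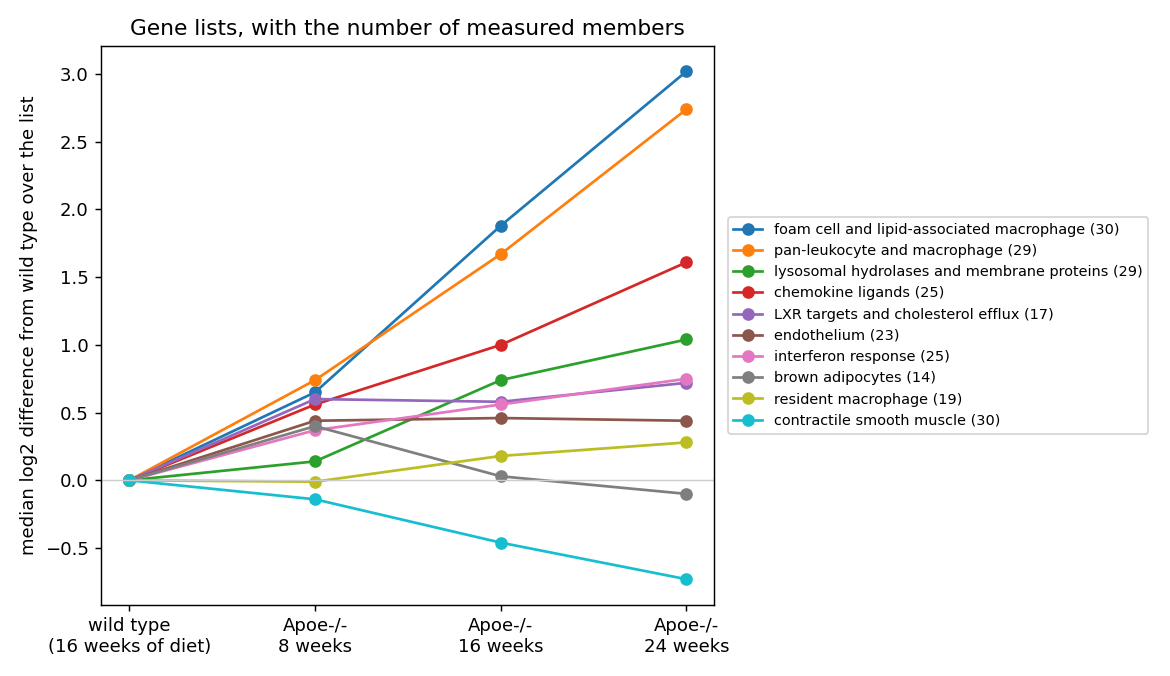
Median log2 difference from wild type over the measured members of 10 gene lists (vertical axis) in Apoe-/- at 8, 16 and 24 weeks of diet, all against the same wild type arrays. The foam cell list goes from 0.65 to 1.88 and 3.02, while the endothelial list stays at 0.44, 0.46 and 0.44 and the brown adipocyte list is highest at 8 weeks (0.40).

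Markers of other cell types that an arch with its fat and lymphoid tissue could hold were read beside these results, and their part in them was not tested. For T cells 1 of 19 members rose (5.3%, against 1.76% of all genes). It was Cd3g (1.94-fold, adjusted p = 0.0426, lost on omission of any of 9 pools, up to 0.170), while Cd3e differed by 0.17. For B cells 1 of 15 rose (6.7%), Cd22 (3.37-fold, 0.00479), while Cd79a differed by 0.07 and Ms4a1 by 0.99 without passing. A single call does not set lists of this size apart. No member of the neutrophil list (16), the mast cell list (10), the cardiac (16) or skeletal muscle list (14), the nerve list (11) or the thymus and lymph node list (12) passed. Over all genes 2.5% did. S100a8 was at -0.94, -1.44 and 0.98 in the Apoe-/- pools against -1.88, -2.25 and -2.50, pool 3 standing high. Rag1, a thymus gene, was at 0.85, -0.47 and 0.63 against -1.25, -1.28 and -1.17 (adjusted p = 0.299). The mean of the 12 thymus genes ranged from -0.36 to 0.07 in Apoe-/- and from -0.62 to -0.37 in wild type. Hba-a1, a globin of red cells, rose 3.71-fold (0.0391, lost on omission of any of 9 pools, up to 0.152). Of 11 dendritic cell genes 2 rose (18.2%), Fscn1 (2.07-fold, 0.0102) and Batf3 (1.86-fold, 0.0145, not without pool 17, 0.0754).

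Some fat cell genes rose at 8 weeks. Cfd, adipsin, a complement protease made by adipocytes, rose 4.73-fold (adjusted p = 0.00907), with ratios of -1.43, -2.53 and -1.04 in wild type and 0.31, 0.53 and 0.88 in Apoe-/-. With Cidec, a lipid droplet protein (2.24-fold, 0.0245, lost without pools 16, 17 and 3, up to 0.119), and Pnpla2, the first lipase of fat breakdown (1.94-fold, 0.00833), 3 of 18 white adipocyte genes rose (16.7%; 5 without pool 18 or 1), with a median of 0.28. Of 14 brown adipocyte genes 2 rose (14.3%, against 1.76% of all genes), with a median of 0.40. They were Cidea (2.88-fold, 0.0141, lost without pools 16 and 17, 0.054 and 0.0754) and Cox8b (3.37-fold, 0.0265, lost without any of 4 pools, up to 0.129). Cox8b read -0.78, -1.27 and -0.45 in wild type and 0.64, 1.32 and 0.79 in Apoe-/-. The defining markers did not pass: Adipoq differed by 0.19, Plin1 by 0.59, Lep by -0.03 and Ucp1 by 0.12, and the Lep probe lay between 0.05 and 0.25 on all 6 arrays. The mean of the brown list was 0.37, 0.11 and 0.63 in Apoe-/- and 0.00, -0.20 and -0.04 in wild type. In 4 of its 14 genes all 3 Apoe-/- pools lay above the 3 wild type pools, as in 9.26% of all genes. The count of brown list rises was 0 without pool 16 or 17, 1 without pool 3 and 4 without pool 2. It was 0 with the 6 arrays alone.

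**Figure D3:**
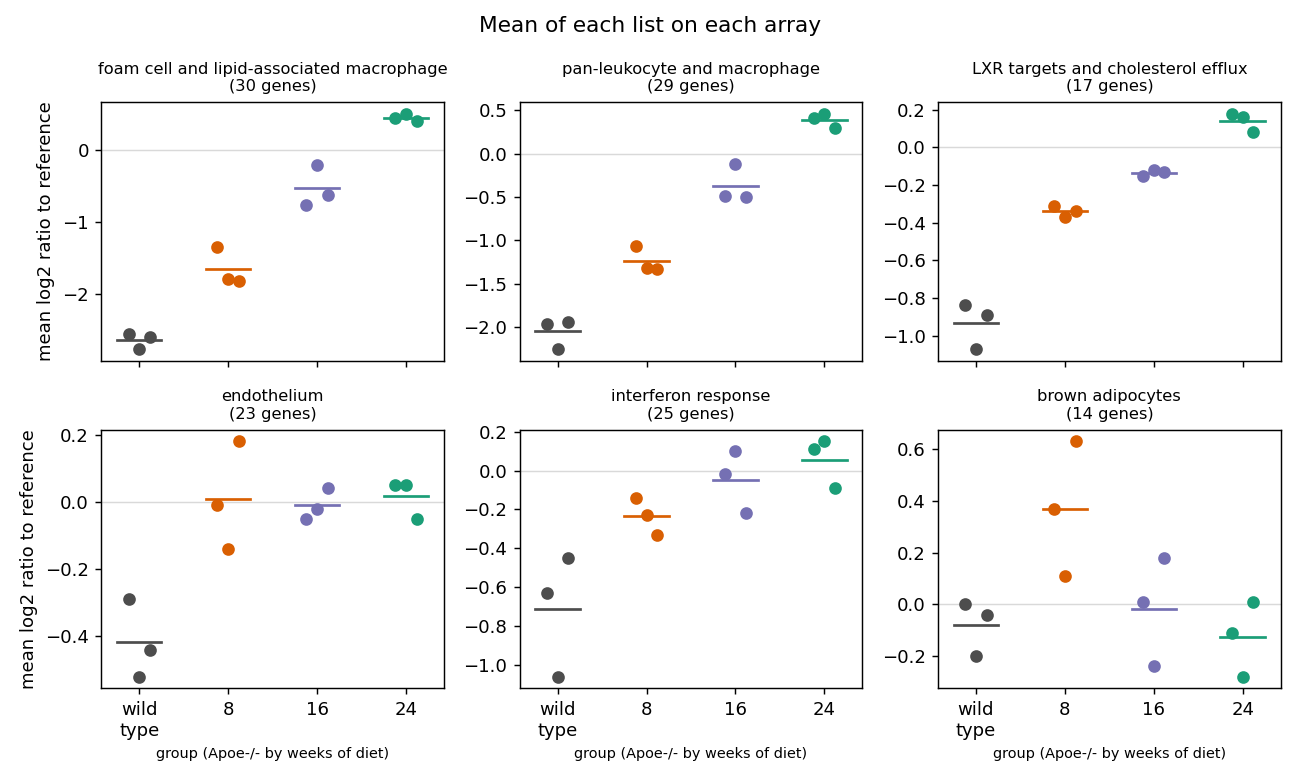
Mean log2 ratio to the reference over the measured members of 6 gene lists on each array (points, 3 pools per group; line, mean of the 3), for wild type and for Apoe-/- at 8, 16 and 24 weeks of diet. Foam cell genes step up from group to group, with 8 week pools between -1.83 and -1.35. The endothelial 8 week pools (-0.14 to 0.18) span those of the later groups (-0.05 to 0.05).

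The largest falls held a second pattern, one of position. Besides Apoe, which lies on chromosome 7, 8 of the other 14 largest falls are on that chromosome, and 26 of the 145 lower genes are (1.57% of its 1658 tested genes, against 0.736% of all). Mrps12, a protein of the mitochondrial ribosome, was at 2.51, 2.47 and 2.57 in wild type and at 0.23, -0.01 and -0.22 in Apoe-/-, 5.72-fold lower (4.73 to 6.91, adjusted p = 5.67e-06). Vmn2r29, a vomeronasal receptor gene, fell 5.2-fold (5.67e-06), and Zfp74, Zfp111 and Zfp420, which encode zinc finger proteins, fell 4.15-, 3.65- and 2.18-fold (0.00112, 0.00207 and 0.000433). In each of these 5 genes the groups did not overlap, as in all 492 called genes. Mrps12, Vmn2r29, Zfp74 and Zfp420, with Apoe, passed under every one of 20 alternative settings. Counted in tested genes from Apoe on one side, Bcam lies 3 away, Zfp111 28, Mrps12 142, Zfp420 172, Zfp74 174, Wtip 238 and Nox4 638. Vmn2r29 lies 143 away on the other side. Of the 100 nearest tested genes on each side of Apoe (200 in all), 10 were lower and 7 higher (8.5% called, against 2.5% of all), and of 631 up to 400 genes away 22 were lower and 20 higher (6.66%). Genes of leukocytes named above, such as Pirb and Cd22, are among these called neighbours. None of the 15 largest falls differed between 8 and 16 weeks, where 2.4% of all genes did, and 4 did between 8 and 24 weeks, where 28.8% did. Of the 42 called neighbours up to 400 genes away, 9 differed between 8 and 16 weeks and 22 between 8 and 24 weeks. Bcam, Wtip, Nox4, Ccn3, Vit, Abca8a and Fam13c were lost on omission of at least pool 16 or 17 (adjusted p up to 0.200). Off chromosome 7, Sphkap, an anchor of protein kinase A, fell 3.56-fold (0.00781) and Lepr, the leptin receptor, 2.17-fold (0.0049), both held without any single pool.

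**Figure D4:**
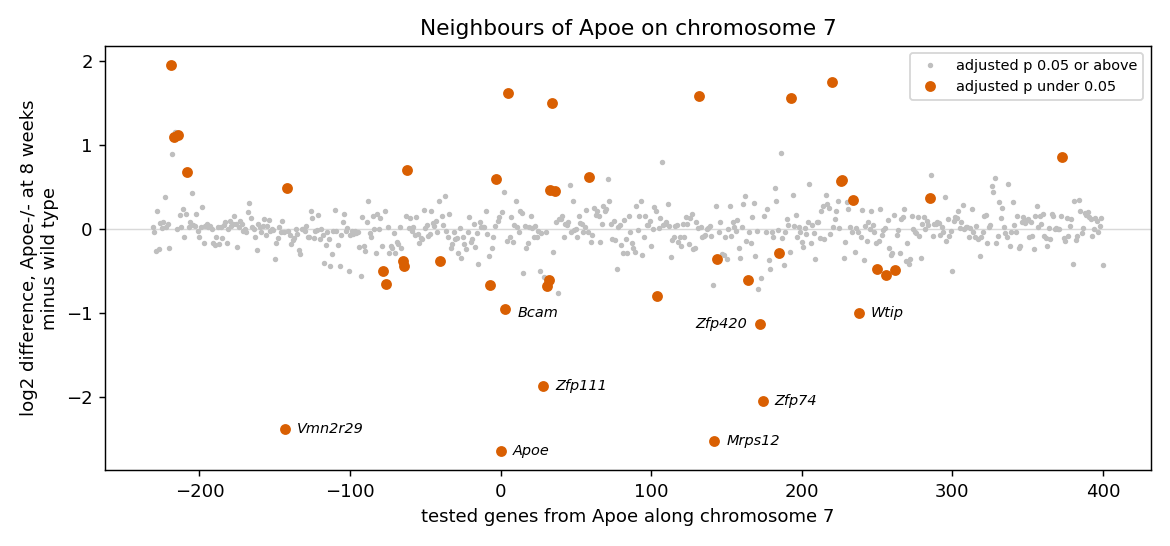
Log2 difference of Apoe-/- at 8 weeks from wild type (vertical axis) for tested genes of chromosome 7 by their order from Apoe (horizontal axis, 231 genes on one side and 400 on the other). Orange points passed adjusted p 0.05. The deepest falls other than Apoe are Mrps12, Vmn2r29, Zfp74 and Zfp111, between 28 and 174 genes away. Of these, Vmn2r29 lies on the side of 231 genes and the others on the side of 400.

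Whether levels differed further after 8 weeks was read from the contrast of Apoe-/- at 16 against 8 weeks, which holds no wild type array but shares the 8 week arrays. In that contrast 472 genes passed (2.4%), 372 higher (1.89%) and 100 lower (0.507%), and at 24 against 8 weeks 5676 did (28.8%). Of the 347 genes higher at 8 weeks, 120 were higher again at 16 weeks, and 218 had no passed difference. Of the 20 largest rises, 15 were higher again at 16 weeks and 18 at 24 weeks. Bex1 had the largest further step (3.02 ± 0.35, adjusted p = 0.00513), so that it stood 5.27 above wild type at 16 weeks. Against the same wild type arrays 1991 genes passed at 16 weeks (10.1%), 1189 higher (6.03%) and 802 lower (4.07%), and 4504 at 24 weeks (22.9%). At 8 weeks 224 genes (1.14%) were at least 2-fold higher at any p and 21 (0.107%) at least 2-fold lower. Cfd and Gzma did not pass at 16 weeks (-0.31 and 0.31, adjusted p = 0.71 and 0.769) or at 24 weeks (adjusted p = 0.0957 and 0.747).

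By list, 21 of 30 foam cell genes were higher at 16 than at 8 weeks (1.89% of all genes were) and 28 at 24 than at 8 weeks (14.7% of all genes). These counts include genes that had not passed at 8 weeks against wild type. For pan-leukocyte genes the counts were 16 and 23 of 29, for lysosomal genes 13 and 24 of 29, and the medians against wild type went from 0.14 to 0.74 and 1.04 for lysosomal genes. No gene of 23 on the endothelial list and of 14 adhesion ligands passed between 8 and 16 weeks, where 2.4% of all genes did, and the difference from the foam cell list was not tested. Plvap differed by 0.14 ± 0.12 (adjusted p = 0.629), Tie1 by -0.04 (0.889) and F11r by 0.05 (0.797). No interferon list gene passed either (Rsad2 0.11, adjusted p = 0.871). In the LXR list 3 of 17 were higher at 16 than at 8 weeks, Abcg1 among them (1.61, 0.007), while Scarb1 (-0.22, 0.59), Scd1 (-0.15, 0.611), Srebf1 (-0.15, 0.546) and Lpcat3 (-0.15, 0.526) did not pass. A difference that did not pass is not shown to be absent. Of 30 contractile genes 4 were lower at 16 than at 8 weeks (0.507% of all genes were) and 20 at 24 than at 8 weeks (14.1% of all genes). Brown adipocyte genes had medians of 0.40, 0.03 and -0.10 against wild type, and 6 of 14 were lower at 24 than at 8 weeks, Cidea among them (-1.70, adjusted p = 0.000959). With the arrays of 8 and 16 weeks alone no gene passed in limma (1914 at an unadjusted p under 0.05), so the calls at 16 against 8 weeks rest on the spread estimated over 12 arrays. At 24 against 8 weeks 3266 genes passed with those 6 arrays alone.

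**Figure D5:**
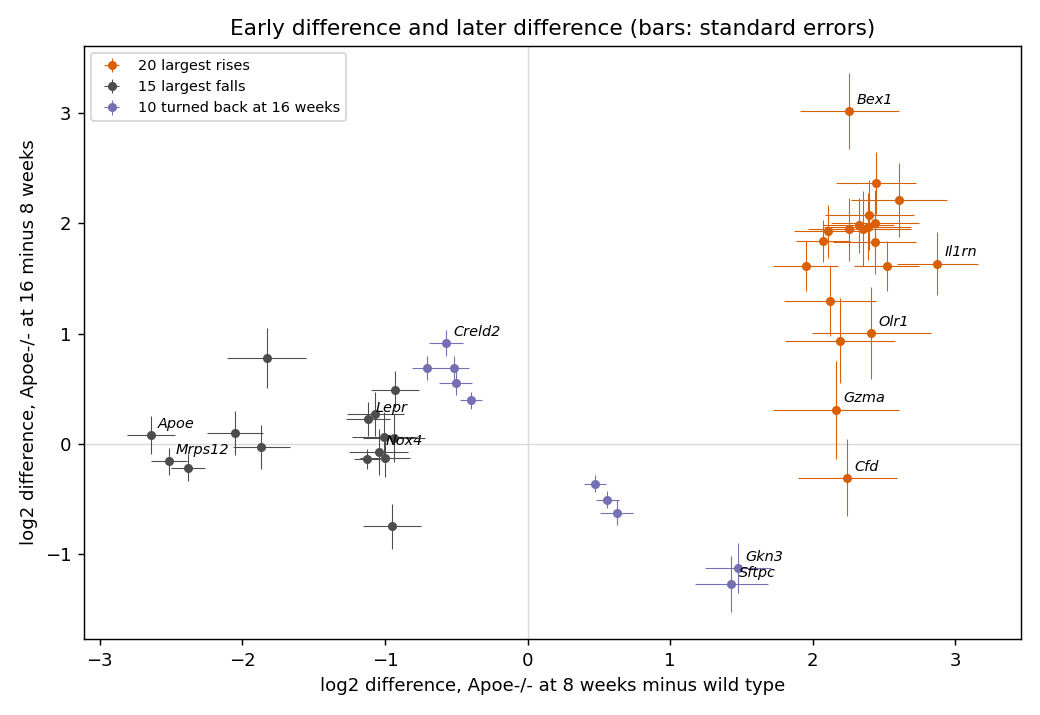
Log2 difference of Apoe-/- at 8 weeks from wild type (horizontal axis) against the log2 difference of Apoe-/- at 16 from 8 weeks (vertical axis) for the 20 largest rises, the 15 largest falls and 10 genes that turned back, with standard errors. Both axes contain the 8 week arrays with opposite sign. Most rises lie between 1.6 and 2.4 on the vertical axis, and the falls of chromosome 7 lie between -0.21 and 0.10 except Bcam, the lowest of them (adjusted p = 0.0896).

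A further 14 genes passed at 8 weeks and then turned back, 9 that were higher and 5 that were lower. Gkn3, known from arterial endothelium in mice, read -0.40, -0.81 and -0.42 in wild type and 1.11, 0.70 and 0.98 in Apoe-/-, a rise of 2.78-fold (adjusted p = 0.00907), and was lower again at 16 weeks (difference -1.12, adjusted p = 0.0285). Sftpc, a lung surfactant gene, rose 2.69-fold (0.016, lost without pools 16 and 17, 0.0631 and 0.0754) with pool 3 highest at 2.04, and was lower again at 16 weeks (-1.27, 0.0259). Creld2, a chaperone of the endoplasmic reticulum, fell 1.49-fold (0.0307, lost on omission of any of 7 pools, up to 0.0988) and was then higher at 16 weeks (0.92, 0.00513). Hspa5, the main chaperone of the unfolded protein response, stood at -0.93, -2.28 and -1.13 in Apoe-/- against -0.57, -0.75 and -0.75 in wild type and did not pass (0.181), and the list of 19 such genes had a median of -0.16 at 8 weeks, with 1 rise, Asns, 1 fall and 5 members higher at 16 than at 8 weeks.

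Smaller lists gave single genes. Among 24 axon guidance genes Plxnd1, a semaphorin receptor of endothelium, rose 2.16-fold (adjusted p = 0.0049), Sema7a rose 2.00-fold (0.013, not without pool 17, 0.0684) and Sema3d fell 1.39-fold (0.0313, lost on omission of any of 7 pools, up to 0.149). Socs3, a feedback inhibitor of cytokine signalling, rose 2.40-fold (0.00846). Of the clock genes that peak with Per and Dbp, Per2 fell 1.71-fold (0.0153, lost without pools 16 and 17, 0.0642 and 0.0709) and Hlf 1.5-fold (0.0295, lost without any of 4 pools, up to 0.109), while Dbp and Per1 differed by 0.17 and 0.10. Of 28 cell cycle genes 1 rose (3.6%, against 1.76% of all genes), the kinesin Kif2c (1.49-fold, 0.0482, lost on omission of any of 10 pools, up to 0.193). The median of the cell cycle genes was 0.25. The count was 4 when pool 2 was omitted and 2 when pool 3 or 6 was. Among lists of energy metabolism, fatty acid oxidation (18 genes) and glycolysis (18) held no gene that passed, where 2.5% of all genes did. In the list of oxidative phosphorylation 1 of 23 rose (4.3%, against 1.76% of all genes), and 0 did without pool 16, 17, 2 or 3.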

How the data were processed

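Expression was measured on 2-colour arrays of 39556 probes, and 12 arrays were used (3 pools in each of 4 groups). The deposited values are log10 ratios of the Cy5 pool to the Cy3 reference, and their normalization is not given in the sources used. The base of the logarithm is not stated with the deposited values. Base 10 was taken because a transcript found in 1 Apoe-/- pool alone can then make up the share of the reference that a pool contributed (8.5% to 17.8% for 4 such transcripts, against 29.3% to 43.6% for base 2), so every fold given here rests on that reading. It assumes that the mice of the pools are among the 21 of the reference, which the sample titles do not say. Multiplication by 3.322 turned them into log2 ratios, and the lowest, -6.64, is a floor of the deposited table. Of the probes, 23283 have 1 gene symbol in the platform annotation and 16273 none. Probes of a gene were averaged, 19896 genes resulted (2869 with several probes), and testing covered the 19705 measured on all arrays. Symbols were updated through the RefSeq gene table of GRCm38.p6, which changed 5952 of 20551. One mean per group was fitted over all 12 arrays with limma (version 3.58.1, R 4.3.3). The moderated test had 8 residual and 2.95 prior degrees of freedom and was two-sided, with Benjamini-Hochberg adjustment over all genes tested and a threshold of 0.05. The fit was tested on simulated data. Pools are the replicates, and the number of arrays limits the precision. Genes are named by rule: Apoe, the 20 largest rises and 15 largest falls past the threshold, up to 5 called and 3 uncalled members of each of 52 lists, the cell type markers and up to 10 genes that turned back at 16 weeks. The members and lists were chosen with earlier results of these data known. Alternatives were another set of arrays, median centring, quantile normalization, array weights, another probe rule, a robust prior, a looser filter, omission of each pool and of both pools with an asterisk, and a 2-fold minimum.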

Additional observations from a re-analysis of the deposited data

Results flagged for a closer look

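Levels at 16 weeks differed from those at 8 weeks, by limma's contrast between the Apoe-/- groups, for 15 of the 20 largest rises. In log2 units the further rise was 1.63 for Il1rn, 2.21 for Mmp12, 1.61 for Abcg1, 2.37 for Atp6v0d2, 2.00 for Bcl2a1b, 1.83 for Cd300c2, 2.07 for Mpeg1 and 1.97 for Ctss. It was 1.95 for Lilrb4a, 1.98 for Trem2, 1.94 for Bcl2a1a, 3.02 for Bex1, 1.92 for Itgax, 1.84 for Gpnmb and 1.61 for Pirb. Of genes that turned back, those higher at 8 weeks were then lower by differences of -1.12 (Gkn3), -1.27 (Sftpc), -0.62 (Ctag2), -0.50 (Speer4f1) and -0.36 (Aqp7). Those lower at 8 weeks were then higher by 0.92 (Creld2), 0.69 (Pum3), 0.69 (Oas1e), 0.55 (Gab1) and 0.40 (Ms4a4d). The 8 week arrays enter both differences with opposite sign.

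Probes without a gene name hold signal that no gene result uses. Of 16129 such probes tested, 60 were higher and 50 lower at 8 weeks than in wild type (0.682%), against 325 and 122 of 23025 probes with a name (1.94%), and the largest differences among the unnamed were 2.86 and -1.24.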

How the results depend on the processing

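The count of genes that differ at 8 weeks from wild type was 492, and it ranged from 137 (without wild type pool 17) to 760 (without pool 18) when each pool was left out, with 222 without pool 16 and 317 without pool 11 of 24 weeks. It was 29 with the 6 arrays alone, 7 after quantile normalization, 310 without both pools with an asterisk and 158 with a 2-fold minimum. Median centring gave 528, array weights 694, the probe of highest variance 518, a robust prior 472 and the looser filter 494. The share of calls that were higher fell from 70.5% to 47.5% without pool 18. The count at 16 against 8 weeks, 472, ranged from 167 (without pool 5) to 758 (without pool 1), with 246 without pool 4, and was 0 with 6 arrays, 1 after quantile normalization and 153 without the asterisk pools. The count at 24 against 8 weeks, 5676, ranged from 2955 (without pool 11) to 7020, with 3168 without pool 12, and was 3266 with 6 arrays. The cause was not tested, beyond the smaller number of arrays. Of 122 named genes past the threshold, 5 passed in all 20 alternatives, 116 were lost after quantile normalization and 107 with 6 arrays. Of 169 named genes not past it, 60 were gained in 1 or more alternatives. Quantile normalization turned Il7r (-0.12), Spp1 (-0.28) and Adam8 (-0.21), and no other named call changed direction. No paired analysis was possible because the pool numbers are not shared between groups. Signal over background is not given in the deposited values, so weakly expressed genes cannot be set apart.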
